A study of Mus musculus with 8 samples.

Results

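The 9 genes described here are markers, hormones, receptors and regulators of Leydig cells, the testosterone-producing cells that lie between the seminiferous tubules of the testis. They were chosen by name and by role, without the enzymes of steroid synthesis: the peptide hormone gene Insl3 and its receptor Rxfp2, the receptor genes Lhcgr and Prlr, the transcription factor genes Nr5a1, Gata4 and Nr2f2, the aldo-keto reductase gene Akr1cl, and Inhba, which encodes a subunit of activin and inhibin. The choice was made with earlier results of these data known. All 9 genes were found among the 55414 genes of the expression table. Testes of control mice (4 samples) were compared with testes of mice treated with the branched-chain amino acid valine (4 samples), by RNA sequencing of total RNA. Neither strain, age and dose nor the route and duration of treatment is given in the sources used here. It was also not stated whether each sample came from its own animal, so each p-value speaks only of the spread among these 8 samples, part or all of which may be technical. Values are FPKM, in which fragment numbers are divided by transcript length and library size, and can therefore be compared between genes as levels per length.

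Adult Leydig cells are driven by luteinizing hormone from the pituitary, which binds the receptor encoded by Lhcgr, raises cyclic AMP and switches on steroid synthesis. The nuclear receptor NR5A1 (also called SF-1) and the zinc finger factor GATA4 act on promoters of steroidogenic genes and of Insl3. INSL3 is a relaxin-like peptide that Leydig cells secrete constitutively. It acts through RXFP2 and is known for its role in the first phase of testis descent in the fetus, and its level in blood is widely used as a measure of the number and differentiation of Leydig cells.

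Upstream sequences are shown for 3 genes that fell in valine testes (Insl3, Lhcgr and Akr1cl) and for the INSL3 receptor gene Rxfp2, which did not pass the test. They come from the RefSeq promoter table of build GRCm38.p6, an older assembly than the GRCm39 to which the reads were aligned, and end before the first annotated transcription start. The table held 7 of the 9 genes; Nr5a1 and Gata4 were the others. Each is written 5′ to 3′ on the strand of the gene: chr8:71689002-71689213 (+) for Insl3, chr17:88792015-88792264 (-) for Lhcgr, chr1:65032760-65033009 (-) for Akr1cl and chr5:150018425-150018674 (+) for Rxfp2. Capitals mark matches on either strand to AAGGTC, the core of the sequence that NR5A1 binds, or to AGGTCA, a core shared by many nuclear receptors that shares all but 1 of its letters with AAGGTC.
Insl3: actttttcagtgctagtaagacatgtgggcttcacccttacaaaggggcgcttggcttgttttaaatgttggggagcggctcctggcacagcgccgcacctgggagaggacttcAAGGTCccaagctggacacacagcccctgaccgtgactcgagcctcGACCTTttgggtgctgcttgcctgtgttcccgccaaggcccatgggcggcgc
Lhcgr: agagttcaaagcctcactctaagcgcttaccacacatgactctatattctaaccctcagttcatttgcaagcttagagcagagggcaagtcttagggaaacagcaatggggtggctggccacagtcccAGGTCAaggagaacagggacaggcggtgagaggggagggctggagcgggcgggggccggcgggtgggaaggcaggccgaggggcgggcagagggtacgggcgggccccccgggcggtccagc
Akr1cl: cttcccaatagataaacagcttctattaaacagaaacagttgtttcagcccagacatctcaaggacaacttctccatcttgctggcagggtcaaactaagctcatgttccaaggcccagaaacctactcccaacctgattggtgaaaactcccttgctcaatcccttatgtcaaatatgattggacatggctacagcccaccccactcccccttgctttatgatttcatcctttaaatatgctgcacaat
Rxfp2: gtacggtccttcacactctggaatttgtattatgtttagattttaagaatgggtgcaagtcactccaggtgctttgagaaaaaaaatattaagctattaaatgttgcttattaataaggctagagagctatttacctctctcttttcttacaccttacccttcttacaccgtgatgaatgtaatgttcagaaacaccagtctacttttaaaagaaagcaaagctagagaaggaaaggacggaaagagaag

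The Insl3 window held 2 matches to AAGGTC, one on each strand. Of 32851 promoter windows of the same length, 9.20% held at least 1 match and 0.551% held 2 or more. The Lhcgr window held 1 match to AGGTCA, which 14.0% of windows of its length contained. Neither sequence was found in the Akr1cl or Rxfp2 windows. A further sequence, AGATAA, which GATA factors can bind, was matched on either strand once in the Akr1cl window, in none of the other 3, and in 9.99% of windows of that length. The 3 Prlr windows (1 for each annotated start) and those of Nr2f2 and Inhba, which are not printed, held no match to any of the 3 sequences. These matches describe the letters only; binding was not measured.

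In valine testes 5 of the 9 genes fell and none rose at a limma adjusted p below 0.05. These were Prlr, Lhcgr, Akr1cl, Insl3 and Nr5a1. Over all 22077 tested genes (those averaging 1 FPKM or more) the share that fell was 4.41%, the share that rose 4.32% and the share called in either direction 8.73%. Gata4, Nr2f2 and Rxfp2 were tested and did not pass, and Inhba lay below the expression filter. The median log2 change of the 8 tested genes was -1.01, against 0.02 over all tested genes. Without overlap between the groups, 7 of the 8 were lower in every valine sample than in every control sample, as were 9.39% of all tested genes, and none was higher throughout, as were 8.99%. The 9 genes were chosen with earlier results of these data known, so these comparisons with all tested genes describe and do not test. The 5 falls passed without any 1 sample. With control replicates 1 and 2 left out together, an alternative chosen after seeing the data, all 5 log2 changes were still negative but Prlr alone passed (limma adjusted p = 0.0384), and 40 of all tested genes fell. Because whole testes were sequenced, fewer Leydig cells and less RNA per Leydig cell cannot be told apart.

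**Figure D1:**
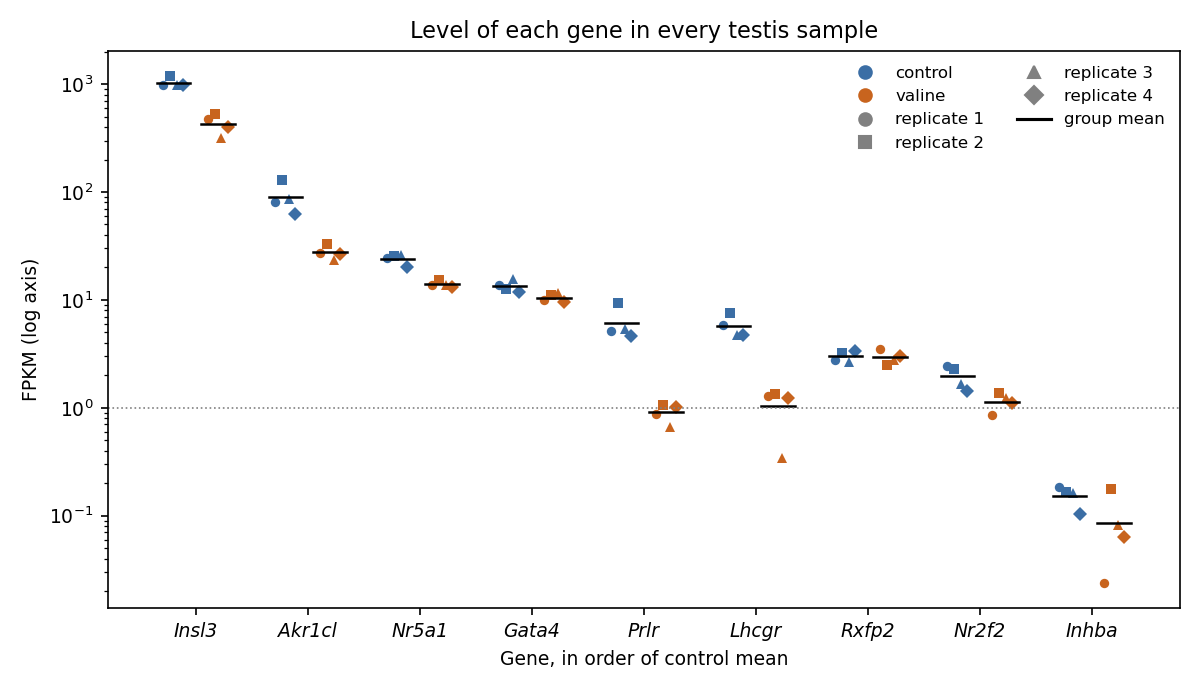
FPKM (log axis) of each gene in the 4 control (blue) and 4 valine (orange) samples, in order of the control mean; symbols mark replicate numbers, black bars the group means, and the dotted line 1 FPKM. The groups are apart for Insl3, Akr1cl, Nr5a1, Prlr and Lhcgr, lie close for Gata4 and Nr2f2, and overlap for Rxfp2 and Inhba.

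Insl3 (ENSMUSG00000079019, chromosome 8) was the most abundant of the 9 genes in both groups. Its level was 983.4, 1188, 989.1 and 972.9 FPKM in control replicates 1 to 4 and 471.9, 531.3, 319.3 and 396.6 FPKM in valine replicates 1 to 4. Every valine sample was below every control sample, and control replicate 2 stood above the other 3 controls, which lay within a narrow range. The mean fell from 1033 ± 103 to 429.8 ± 92.0 FPKM (mean ± SD, n = 4 per group), a log2 change of FPKM + 1 of -1.28 ± 0.149 (SE; limma adjusted p = 0.00387). Among all tested genes 0.643% had a more negative change.

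Rxfp2 (ENSMUSG00000053368, chromosome 5) encodes the G protein-coupled receptor for INSL3; within the testis it is known from germ cells as well as Leydig cells. It was listed at 2.79, 3.21, 2.68 and 3.39 FPKM in the control samples and at 3.49, 2.51, 2.79 and 3.05 FPKM in the valine samples. The groups overlapped throughout. The log2 change was -0.02, with a 95% interval of -0.29 to 0.24 (limma adjusted p = 0.928). Within the same samples the log2 ratio of Insl3 to Rxfp2, on the log2(FPKM + 1) scale, fell from 8.01 ± 0.151 to 6.75 ± 0.359 (two-sided exact permutation test, p = 0.0286, the smallest that 4 against 4 samples allow, and 0.0286 after adjustment over the 9 ratios tested here). This ratio was lower in every valine sample than in every control sample. Its change of -1.26 largely repeats that of Insl3 (-1.28), since Rxfp2 hardly changed, and is not separate evidence.

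Among the other genes of the relaxin family, 2 of the 7 that are not Insl3 or Rxfp2 were expressed enough to be tested. Insl6, a relative of Insl3 made by germ cells, rose from 312.3 ± 23.1 to 380.4 ± 23.2 FPKM (limma adjusted p = 0.0337). That call held in 8 of 19 alternative settings and was lost with equal totals, quantile normalisation and correction for transcript length (limma adjusted p = 0.109, 0.152 and 0.307). It was also lost without control replicate 1, 2 or 3 or valine replicate 1, 3 or 4 (limma adjusted p between 0.0657 and 0.0891). Insl5, named after its value was seen, had 0.921 ± 0.385 and 2.88 ± 1.65 FPKM and did not pass (limma adjusted p = 0.18).

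Lhcgr (ENSMUSG00000024107, chromosome 17), the receptor through which luteinizing hormone reaches Leydig cells, had 5.85, 7.54, 4.75 and 4.76 FPKM in the control samples. In the valine samples it had 1.28, 1.34, 0.344 and 1.22 FPKM. The groups were far apart, and valine replicate 3 lay well below the other valine samples. Lhcgr averaged 5.72 ± 1.32 FPKM in controls and 1.05 ± 0.470 FPKM with valine (limma log2 change -1.73 ± 0.216 SE, adjusted p = 0.00453), a ratio of mean FPKM of 5.47. On the log2(FPKM + 1) scale the fold is 3.32, since the added 1 FPKM understates the change of low genes. With a pseudocount of 0.1 the log2 change was -2.46 (limma adjusted p = 0.0101).

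Of 18 tested genes of the luteinizing hormone receptor pathway (Lhcgr, the G protein, cyclic AMP and protein kinase A steps and their targets), 4 fell, 2 rose and 12 did not pass. The list median was -0.21. Besides Lhcgr, the falls included Adcy9, an adenylyl cyclase that makes cyclic AMP (3.72 ± 0.448 to 1.63 ± 0.124 FPKM, limma adjusted p = 0.00535), and Prkacb, a catalytic subunit of protein kinase A (4.25 ± 0.387 to 2.77 ± 0.403 FPKM, limma adjusted p = 0.0339). The call of Adcy9 held in 18 of 18 alternatives, and that of Prkacb in 9 of 18. Prkacb did not pass without any 1 sample other than control replicate 3 or valine replicate 2 (limma adjusted p between 0.0766 and 0.091). The rises were Prkar2a, a regulatory subunit of the kinase (92.3 ± 0.903 to 107.2 ± 7.15 FPKM, limma adjusted p = 0.0482), and Crem, a cyclic AMP-responsive factor best known from spermatids and named after its value was seen. With equal totals, which shifted the all-gene median from 0.02 to -0.08, neither passed (limma adjusted p = 0.274 and 0.191) and 9 genes of the list were lower. Neither passed with quantile normalisation (limma adjusted p = 0.245 and 0.113). Prkar2a also failed without any 1 sample other than valine replicate 2, and Crem without any other than control replicate 3 or valine replicate 2 (limma adjusted p between 0.0502 and 0.117).

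Prlr (ENSMUSG00000005268, chromosome 15) encodes the prolactin receptor, a cytokine receptor that signals through JAK2 and STAT5 and is known on rodent Leydig cells, where prolactin helps to maintain the luteinizing hormone receptor. Its values were 5.10, 9.33, 5.40 and 4.64 FPKM in the control samples and 0.883, 1.06, 0.668 and 1.02 FPKM in the valine samples. No valine sample came near the lowest control, and control replicate 2 stood above the rest. Prlr had the most negative change of the 9 genes (6.12 ± 2.17 against 0.909 ± 0.177 FPKM; limma log2 change -1.86 ± 0.197 SE, adjusted p = 0.0032), and 0.113% of tested genes changed further downward. The ratio of mean FPKM was 6.73, and the log2 change with a pseudocount of 0.1 was -2.59. Without control replicate 2 the log2 change was -1.67 and the call held.

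In the list of prolactin and growth hormone receptor signalling 4 of 10 tested genes fell, none rose, and the median was -0.33. The other falls were Stat5b (2.63 ± 0.156 to 1.49 ± 0.106 FPKM, limma adjusted p = 0.0176) and Stat3 (9.88 ± 0.486 to 7.28 ± 0.0776 FPKM, limma adjusted p = 0.0116), which carry the receptor signal to the nucleus, and Igf1, a growth factor that growth hormone induces and that testis somatic cells make (2.30 ± 0.147 to 1.33 ± 0.0846 FPKM, limma adjusted p = 0.0249). These calls held in 17 of 18, 18 of 19 and 8 of 18 alternatives, and that of Igf1 was lost without any 1 sample other than control replicate 3 (limma adjusted p between 0.0553 and 0.0682). Jak2, the kinase bound to the receptor, named after its value was seen, did not pass (log2 change -0.39, limma adjusted p = 0.128).

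Nr5a1 (ENSMUSG00000026751, chromosome 2), the nuclear receptor whose core sequence is marked in the Insl3 window above, is made by Leydig cells and by Sertoli cells, which nurse the germ cells within the tubules. Control samples had 24.4, 25.7, 25.9 and 20.2 FPKM and valine samples 13.8, 15.4, 13.8 and 13.0 FPKM. Spread within the groups was small and the groups did not overlap. Nr5a1 averaged 24.1 ± 2.66 FPKM in controls and 14.0 ± 1.01 FPKM with valine (limma log2 change -0.74 ± 0.0926 SE, adjusted p = 0.00466). Of all tested genes 2.73% had a more negative change.

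Gata4 (ENSMUSG00000021944, chromosome 14), a zinc finger factor of Sertoli and Leydig cells, had 13.7, 12.5, 15.6 and 11.7 FPKM in control and 9.95, 11.1, 11.5 and 9.51 FPKM in valine samples. The highest valine sample lay just below the lowest control. The difference did not pass (13.4 ± 1.70 and 10.5 ± 0.929 FPKM, log2 change -0.32, 95% interval -0.55 to -0.09, limma adjusted p = 0.0897 and unadjusted p = 0.0127). With equal totals it did (log2 change -0.43, limma adjusted p = 0.0408). Nr2f2 (ENSMUSG00000030551, chromosome 7), which encodes COUP-TFII, a nuclear receptor of Leydig progenitors and stromal cells, was low. Its values were 2.45, 2.29, 1.65 and 1.44 FPKM in control and 0.855, 1.36, 1.23 and 1.12 FPKM in valine samples. Again no valine sample reached the lowest control, by a narrow margin, and the difference did not pass (log2 change -0.46, 95% interval -0.82 to -0.09, limma adjusted p = 0.115).

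Of 21 tested gonadal transcription factor genes 3 fell, Nr5a1 among them, none rose, and the median was -0.20. With 1 sample left out, 1 or 2 genes of the list were lower, and 5 genes of the list were lower with equal totals. Sox9 and Wt1, both expressed by Sertoli cells and named after their values were seen, did not pass. Sox9 had 8.88 ± 1.11 and 9.81 ± 2.10 FPKM (limma adjusted p = 0.648) and Wt1 14.8 ± 1.21 and 15.7 ± 2.0 FPKM (limma adjusted p = 0.691). Gata6, the close relative of Gata4 and likewise named after its value was seen, had 3.75 ± 0.348 and 4.06 ± 0.620 FPKM (limma adjusted p = 0.681).

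Akr1cl (ENSMUSG00000025955, chromosome 1) belongs to the aldo-keto reductases, enzymes that reduce carbonyl groups of steroids and other substrates. It was the next most abundant of the 9 genes after Insl3, with 80.9, 129.1, 86.3 and 62.8 FPKM in control and 27.1, 33.2, 23.6 and 26.7 FPKM in valine samples. The controls varied widely, from replicate 4 as the lowest to replicate 2 as the highest, but all stood above the valine samples. Akr1cl averaged 89.8 ± 28.1 FPKM in controls and 27.6 ± 4.04 FPKM with valine (limma log2 change -1.63 ± 0.202 SE, adjusted p = 0.00453). Of 12 tested aldo-keto reductase genes 2 fell and none rose, with a median of 0.01. The other fall was Akr1c14, a 3-alpha-hydroxysteroid dehydrogenase, from 1.80 ± 0.226 to 0.724 ± 0.337 FPKM (limma adjusted p = 0.0369). That call held in 8 of 18 alternatives and was lost without any of the samples but valine replicate 2 (limma adjusted p between 0.059 and 0.0881). Akr1c14 has paralogs, and how reads shared between them were counted is not stated.

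Inhba (ENSMUSG00000041324, chromosome 13) encodes the beta A subunit, which forms activin A as a dimer or inhibin A with the alpha subunit. It was scarcely detected, at 0.184, 0.164, 0.162 and 0.104 FPKM in control and 0.024, 0.175, 0.082 and 0.064 FPKM in valine samples. The groups overlapped, and with a mean below 1 FPKM it was not tested. Scaled by relative depth, the 8 values stood within 0.0769 of whole multiples of one step, namely 9, 7, 7 and 5 steps in control and 1, 8, 4 and 3 steps in valine samples. If a step is 1 fragment, these are 28 and 16 fragments in all. The step size was searched for in these same 8 values, so their closeness to whole multiples is not a test. Without the expression filter the adjusted p was 0.521 (limma).

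The partner subunits were much more abundant and are named after their values were seen. Inha, the alpha subunit, had 118.3 ± 12.2 and 108.0 ± 6.94 FPKM (limma adjusted p = 0.374), and Inhbb, the beta B subunit of Sertoli cells, 16.2 ± 1.08 and 17.6 ± 1.15 FPKM (limma adjusted p = 0.382). Of 13 tested activin and inhibin pathway genes 3 fell, none rose, and the median was -0.11. The falls were Tgfbr3, the inhibin co-receptor betaglycan (9.69 ± 2.31 to 4.88 ± 0.946 FPKM, limma adjusted p = 0.0277), the type I receptor Acvr1 (3.22 ± 0.804 to 1.74 ± 0.15 FPKM, limma adjusted p = 0.0491) and the signal transducer Smad3 (5.23 ± 0.670 to 3.21 ± 0.651 FPKM, limma adjusted p = 0.0364). These calls held in 12 of 19, 6 of 18 and 9 of 18 alternatives, and with 1 sample left out at most 1 gene of the list was lower. Tgfbr3 did not pass without any 1 sample other than control replicate 4 or valine replicate 1, Acvr1 without any other than control replicate 1, and Smad3 without any other than control replicate 3 or valine replicate 3 (limma adjusted p between 0.0603 and 0.12).

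**Figure D2:**
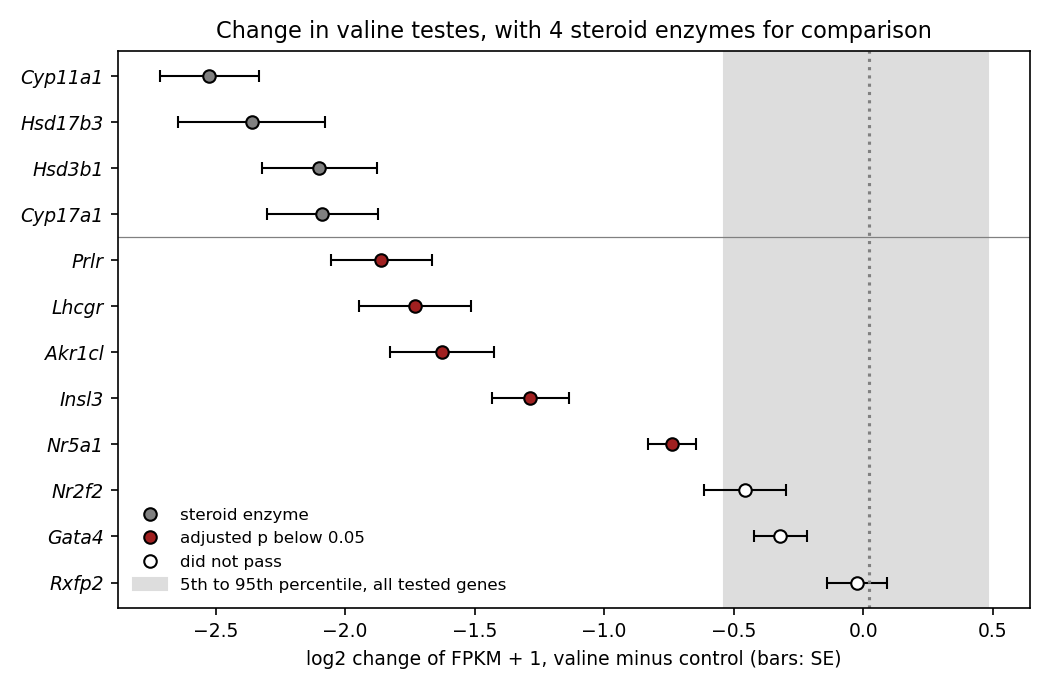
Log2 change of FPKM + 1, valine minus control, with its SE, for the 8 tested genes and for 4 steroid enzymes (grey); the grey band spans the 5th to 95th percentile of all tested genes (-0.54 to 0.48). Prlr, Lhcgr, Akr1cl, Insl3 and Nr5a1 (red) lie to the left of the band, and Nr2f2, Gata4 and Rxfp2 (white) inside it.

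The order of the levels changed between the groups. In control testes Insl3 was followed by Akr1cl, Nr5a1, Gata4, Prlr, Lhcgr, Rxfp2, Nr2f2 and Inhba, and all neighbours were separate in their ranges except Prlr and Lhcgr (4.64 to 9.33 and 4.75 to 7.54 FPKM). In valine testes the first 4 places were the same, but Rxfp2 took the fifth place, above Nr2f2, Lhcgr and Prlr. The lowest Rxfp2 value in valine samples (2.51 FPKM) was above the highest values of Nr2f2, Lhcgr and Prlr (1.36, 1.34 and 1.06 FPKM), and these 3 overlapped as neighbours.

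The 5 genes that fell also largely shared their high and low samples. Control replicate 2 was the highest control for 4 of them, all but Nr5a1, and valine replicate 2 was the highest valine sample for all 5. Control replicate 4 was the lowest control for 4, all but Lhcgr, and valine replicate 3 the lowest valine sample for 4, all but Nr5a1. How often each sample was highest or lowest over all tested genes was not computed. The mean log2(FPKM + 1) of the steroid enzymes Cyp11a1, Cyp17a1, Hsd3b1 and Hsd17b3 was also highest in control replicate 2 (7.70) and valine replicate 2 (5.30), and lowest in control replicate 4 (6.93) and valine replicate 3 (4.61).

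Whether the 8 tested genes changed by as much as Cyp11a1, Cyp17a1, Hsd3b1 and Hsd17b3 was examined within samples. These 4 enzymes were chosen with earlier results of these data known and were the 4 with the most negative change among the 13 tested steroid synthesis genes (-2.09 to -2.52). The median of the 13 was -0.62, and the changes of Insl3, Akr1cl and Nr5a1 (-1.28, -1.63 and -0.74) were more negative than that. The mean of the 4 enzymes fell from 7.21 ± 0.343 to 4.95 ± 0.283 on the log2(FPKM + 1) scale, a change of -2.27. Insl3 relative to this mean rose from 2.80 ± 0.212 to 3.78 ± 0.108, a difference of 0.98, so that Insl3 fell less than the mean of these 4 enzymes. Relative to the same 4 enzymes, Nr5a1 was higher by 1.53, Gata4 by 1.95, Nr2f2 by 1.81, Rxfp2 by 2.24 and Akr1cl by 0.64. Valine and control samples did not overlap in any of these ratios (two-sided exact permutation test, p = 0.0286 for each, 0.0286 after adjustment over 9 ratios, the smallest p that 70 arrangements allow). Because the 4 enzymes with the most negative change were taken, their choice favoured higher ratios, and these p-values only describe. For Rxfp2, Gata4 and Nr2f2, whose own changes did not pass, the ratio mostly repeats the change of the enzymes (-2.27) and is not separate evidence.

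For Lhcgr and Prlr the answer depended on the pseudocount. With 1 FPKM added, their ratios to the 4 enzymes were higher in valine testes by 0.54 and 0.41 (exact permutation p = 0.0286, adjusted 0.0286). With 0.1 FPKM added, they were lower by contrast, with differences of -0.15 and -0.27 (adjusted p = 0.857 and 0.0643, exact permutation test). No difference in fall between these 2 receptor genes and the 4 enzymes was thus resolved. With 1 FPKM added, the adjusted p was also 0.0571 for Lhcgr without control replicate 2 or 3 or valine replicate 1 or 4, and for Prlr without any 1 of the control samples (exact permutation test).

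**Figure D3:**
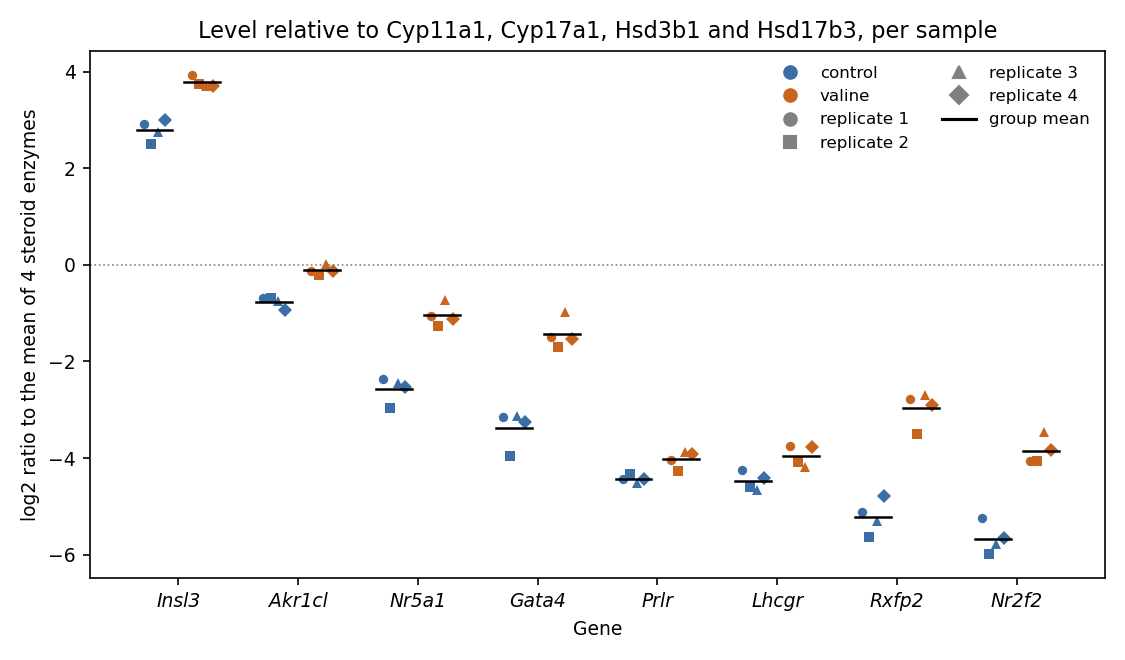
Log2 ratio, on the log2(FPKM + 1) scale, of each tested gene to the mean of Cyp11a1, Cyp17a1, Hsd3b1 and Hsd17b3 in the same sample, for control (blue) and valine (orange) replicates, with group means as bars. Every ratio is higher in valine samples; for Prlr and Lhcgr, the gap reversed when 0.1 FPKM was added in place of 1 FPKM.

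Genes were then sought whose pattern over the 8 samples was most like that of each fallen gene, by the root mean square difference between mean-centred log2(FPKM + 1) values, among 9776 named genes averaging 5 FPKM or more. This measure uses the difference between the groups as well as the spread within them. For Insl3 the nearest were Tmem176b (0.111), a membrane protein that fell from 34.8 ± 4.91 to 14.2 ± 2.92 FPKM, then the fatty acid-binding protein Fabp3 (0.149), the proteoglycan Dcn (0.152), one of the stromal markers below, Tmem176a (0.154) and Fads6 (0.169). For Prlr they were Aldh1a7 (0.0863), an aldehyde dehydrogenase that fell from 25.5 ± 7.39 to 6.49 ± 0.903 FPKM, then Akr1cl itself (0.156) and Tmem164 (0.160). Aldh1a7 was also the nearest to Akr1cl (0.127), followed by the transaminase Gpt2 (0.148). Lhcgr was nearest to the selenium carrier Selenop (0.178), the epoxide hydrolase Ephx1 (0.203) and Gpt2 (0.205). The added 1 FPKM understates the change of low genes such as Prlr and Lhcgr, and nearness with a smaller pseudocount was not computed. The ratio of mean FPKM, control over valine, was 6.73 for Prlr against 3.93 for Aldh1a7, 3.25 for Akr1cl and 5.25 for Tmem164. For Lhcgr it was 5.47, against 4.31 for Selenop, 3.92 for Ephx1 and 3.44 for Gpt2. Nr5a1 was nearest to the acyltransferase Gpam (0.0509), Tceal9 (0.0563) and the amino acid carrier Slc7a5 (0.0578).

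**Figure D4:**
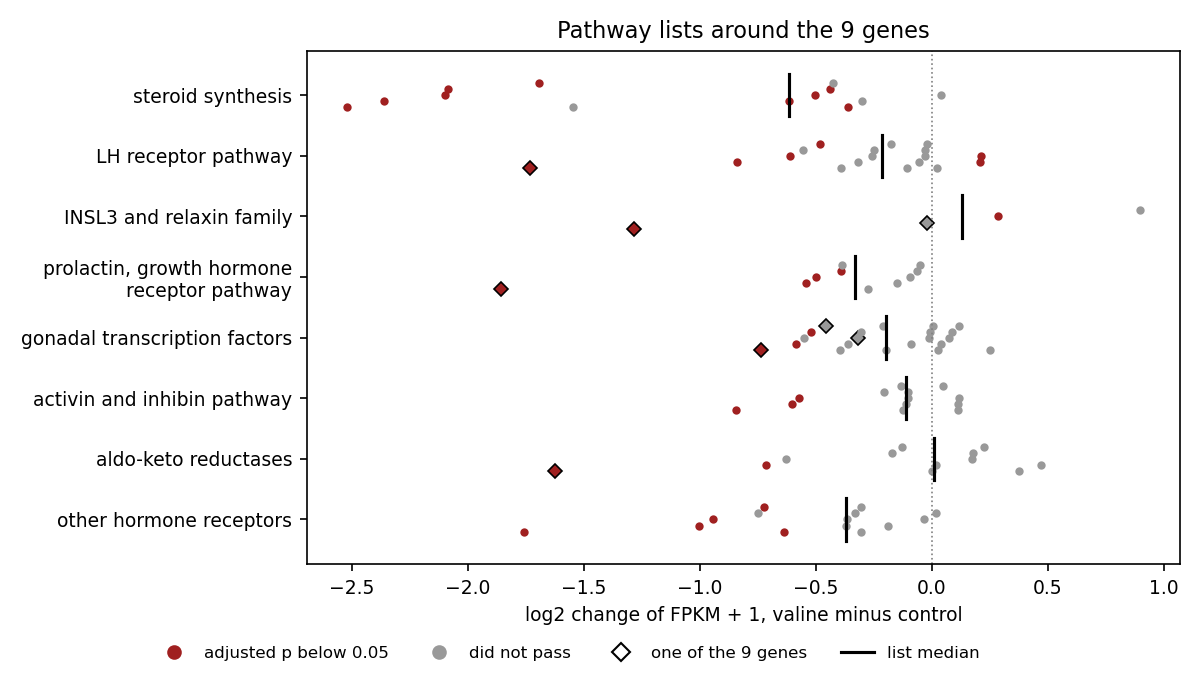
Log2 change of FPKM + 1, valine minus control, of each tested gene in 8 lists of related genes (rows); red points passed at an adjusted p below 0.05, diamonds are genes among the 9, and black bars the list medians. Lhcgr, Insl3, Prlr and Akr1cl lie at the left end of their rows, apart from the other genes.

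Markers of other cell types moved in the same samples, and their part in these results was not tested. Of 13 tested steroid synthesis genes 9 fell and none rose (median -0.62). Of 10 Leydig markers, 3 of them among the 9 genes, 9 fell (summed level 1822 to 2504 FPKM in control and 573 to 869 FPKM in valine samples). Insl3 alone supplied 973 to 1188 FPKM of this sum in control and 319 to 531 FPKM in valine samples, so the sum is not separate from its fall. Of 9 macrophage markers 5 fell (summed level 107.7 to 130.0 FPKM in control and 47.6 to 63.4 FPKM in valine samples), and of 7 stromal and progenitor markers 4 fell (39.7 to 71.1 and 18.3 to 23.0 FPKM). Of 7 endothelial markers 4 fell (30.4 to 36.3 and 17.8 to 19.5 FPKM). Of 15 Sertoli markers 2 rose and 1 fell, with overlapping sums (816.3 to 931.2 and 846.8 to 928.2 FPKM). Of 9 peritubular myoid markers 3 fell, also with overlapping sums (487 to 539 and 495 to 567 FPKM). The log2 change was negative for 8 of these 9 myoid markers, with a median of -0.49. Of 9 elongating spermatid markers 8 rose (42230 to 44527 and 54032 to 66037 FPKM), of 9 round spermatid markers 3 rose, of 10 spermatocyte markers 1 rose, and of 8 spermatogonial markers 2 fell. The spermatogonial falls were Kit, also a receptor of Leydig cells, and Zbtb16. The 8 spermatogonial markers had a median of 0.03 and overlapping sums (91.2 to 110.1 and 101.3 to 113.3 FPKM). Of the elongating spermatid calls, those of Prm1, Prm2 and Tnp1 were lost with quantile normalisation (limma adjusted p = 0.319, 0.511 and 0.127), and that of Prm3 was not. The calls of Prm1 and Tnp1 were also lost with the length trend removed (limma adjusted p = 0.0789 and 0.0653). None of 6 red blood cell markers passed, and 1 of 3 tested adrenal cortex markers, Mrap, fell (12.5 to 30.1 FPKM in sum over both groups). Of 6 tested fat cell markers 1 fell; the markers summed to 93.5 FPKM in control replicate 1 and to 31.9 to 42.0 FPKM in the other 7 samples. Among these marker calls, those of Tjp1 and Rhox8 (Sertoli), Spaca7 (round spermatid), Ccna1 (the spermatocyte call), Col3a1 (stromal) and Plin1 (the fat cell call) held in 5, 8, 5, 6 and 8 of 19 and 9 of 18 alternatives. Tjp1 did not pass without any 1 sample, Rhox8 without any other than control replicate 3, Spaca7 without any other than valine replicate 3, and Ccna1 without any other than control replicate 2. Col3a1 did not pass without any 1 sample other than control replicate 1 or 4, nor Plin1 without any other than control replicate 4 (limma adjusted p between 0.0502 and 0.124 for all 6 genes). Without control replicate 1 all 5 calls held, with log2 changes of -1.31 for Insl3, -1.72 for Lhcgr, -1.92 for Prlr, -0.73 for Nr5a1 and -1.66 for Akr1cl. Total FPKM was 944659 to 974626 in control and 1027662 to 1070524 in valine samples, and depth relative to control replicate 1 was 0.866 to 1.00, while absolute depth was unknown.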

How the data were processed

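Testis RNA libraries were made with an Illumina TruSeq kit after Trizol extraction, per the labels' protocols. The authors deposited FPKM values for 55414 Ensembl genes in 8 samples, aligned with HISAT2 to GRCm39 per the submitters' processing notes. The quantifier, the aligner version, the annotation release and the strand setting are not given in the sources used here. An FPKM value depends on the rest of the library, so a change in abundant transcripts shifts every value. Symbols came from a GENCODE vM21 table, which named 52081 genes. No pair of samples held identical values. Relative depth was the most common ratio of low values to those of control replicate 1.

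Values were analysed as log2(FPKM + 1). The 22077 genes averaging 1 FPKM or more were tested with limma version 3.58.1 in R 4.3.3 (treatment as only term, trended empirical Bayes moderation, two-sided p, Benjamini-Hochberg adjustment over all tested genes, threshold 0.05). The fit was tested on simulated data. Ratios within samples were compared by exact permutation over 70 arrangements.

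The 9 genes and the lists (8 pathway, 13 cell type) were chosen with earlier results of these data known. Named genes were the 9, up to 4 called genes per list (or the 2 with the smallest p), the 4 enzymes, and the nearest genes in pattern (5 for Insl3, 3 for each other fallen gene). Some genes that the rule takes are not reported here. Others are said to have been named after their values were seen. The labels give no batch. Alternatives are listed in the closing section; gene lengths were found for 98.2% of tested genes.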

Additional observations from a re-analysis of the deposited data

Results flagged for a closer look

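Samples whose gap to the nearest other sample took up a larger part of the group's range than Dixon's 95% limit for 4 samples were looked for in 36 groups of values, and chance alone gives about 1 in 20. Control replicate 2 was set apart upward for Insl3 (1188 FPKM) and for Prlr (9.33 FPKM), and downward for the log2 ratio of Gata4 to the 4 steroid enzymes (-3.95). Valine replicate 3 was set apart downward for Lhcgr (0.344 FPKM). Without control replicate 2 the log2 changes were -1.22 for Insl3 and -1.67 for Prlr, and without valine replicate 3 that of Lhcgr was -1.54; all 3 calls held (limma).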

How the results depend on the processing

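The falls of Insl3, Nr5a1 and Akr1cl passed in 19 alternative settings each and those of Lhcgr and Prlr in 18 each, since a filter at a mean of 5 FPKM kept only 4 of the 9 genes (3 fell) and gave no value for Rxfp2, Lhcgr, Prlr and Nr2f2. With 1 sample left out, 5 of the 9 genes fell each time. Of all genes, 954 rose and 974 fell; the rises were 568 without an expression filter, 363 with equal totals (2022 falls), 398 with quantile normalisation, 471 with the length trend removed, 503 without a moderation trend, and 379 to 794 (454 to 793 falls) with 1 sample left out. Leaving out control replicates 1 and 2 together, chosen after seeing the data, gave 11 rises, 40 falls and 1 of the 9 genes past the threshold, with log2 changes of -1.21 for Insl3, -1.53 for Lhcgr, -0.67 for Nr5a1 and -1.39 for Akr1cl (limma adjusted p = 0.0749, 0.0778, 0.0828 and 0.0535); fewer samples entered that fit, and no other cause was tested. Rxfp2 turned positive with quantile normalisation (0.0176) and length removal (0.0427) and ranged from -0.0858 to 0.0328 with 1 sample left out. Gata4 passed with equal totals (-0.43). Inhba was at -0.49 with a pseudocount of 0.1. That pseudocount reversed the ratios to the 4 enzymes of Lhcgr (-0.15) and Prlr (-0.27), which with 1 sample left out were 0.47 to 0.62 and 0.36 to 0.49. Same-numbered samples did not deviate together (r = -0.0167, -0.0401, 0.104 and 0.111), and not every sample correlated best with its own number. With the replicate number as a block 581 genes rose and 489 fell, and the 5 falls passed (limma adjusted p between 0.0198 and 0.023). Under the block the ratios were 0.98 for Insl3, 2.24 for Rxfp2, 0.54 for Lhcgr, 0.41 for Prlr, 1.53 for Nr5a1, 1.95 for Gata4, 1.81 for Nr2f2, 0.64 for Akr1cl and -1.26 for Insl3 to Rxfp2, where the smallest exact p is 0.125, so none could pass. Absolute depth was unknown, which limits what can be said of Inhba.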

Other observations

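Among 14 tested genes of other hormone and growth factor receptors 5 fell and none rose, with a median log2 change of -0.37. Oxtr, the oxytocin receptor, had 5.69, 8.66, 8.38 and 5.98 FPKM in control and 1.67, 1.26, 1.29 and 1.33 FPKM in valine samples (limma log2 change -1.76 ± 0.149 SE, adjusted p = 0.00129). All valine samples lay far below the controls, and Oxtr passed in 18 of 18 alternative settings and also without control replicates 1 and 2. Kit, the stem cell factor receptor of Leydig cells and spermatogonia, fell from 7.96 ± 1.71 to 3.60 ± 0.402 FPKM (limma adjusted p = 0.00933). Pdgfra, a platelet-derived growth factor receptor of stromal and Leydig progenitor cells, fell from 4.88 ± 1.36 to 1.88 ± 0.204 FPKM (limma adjusted p = 0.0121), and Ptch1, the hedgehog receptor, from 2.39 ± 0.239 to 1.05 ± 0.0974 FPKM (limma adjusted p = 0.00966). These 3 passed in 19 of 19, 18 of 18 and 18 of 18 alternative settings, and none passed without control replicates 1 and 2 (limma adjusted p = 0.0838, 0.089 and 0.128). Ednra, an endothelin receptor named after its value was seen, fell from 2.81 ± 0.372 to 1.46 ± 0.396 FPKM (limma adjusted p = 0.0339). It did not pass without any 1 sample other than valine replicate 2 (limma adjusted p between 0.055 and 0.0903).

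Other receptors lay below the expression filter and were not tested; they are named after their values were seen. Esr1, the alpha oestrogen receptor, was listed at 1.05 to 1.56 FPKM in control and 0.267 to 0.337 FPKM in valine samples, without overlap. Avpr1a, a vasopressin receptor, had 0.943 to 1.37 and 0.210 to 0.564 FPKM, also without overlap. Among tested genes 9.39% were lower in valine samples without overlap, and the share among genes below the filter was not computed. Of the list of other hormone and growth factor receptors 5 genes lay below the filter, and not all are given here. Mc2r, the corticotropin receptor, was listed at 0 in all valine samples and in control replicate 3, and at 0.163 to 0.240 FPKM in the other 3 controls.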
